A study of Homo sapiens with 10 samples.

Results

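The 10 genes described here encode enzymes that break down cAMP, and were followed through the making of human thyroid organoids from embryonic stem cells: PDE3A, PDE3B, PDE4A, PDE4B, PDE4C, PDE4D, PDE7B, PDE8A, PDE8B and PDE10A. They were listed by name among the phosphodiesterases that hydrolyse cAMP, and all were found among the 28265 gene symbols counted. RNA came from NKX2-1 GFP+ cells sorted by flow cytometry on days 16, 23, 31, 38 and 45 of differentiation, with 2 libraries per day and 10 libraries in all. Every group was the same line, ESIBIe003-A-6, derived from the human embryonic stem cell line HES3. GFP replaces part of the coding sequence at one of its NKX2-1 alleles, and doxycycline switches on transgenes for NKX2-1 and PAX8. Doxycycline was given to all cells early in the protocol and withdrawn before day 16. The line was taken through selected clones, each library pooled several wells, and every comparison of medium is also a comparison of age, so medium and time cannot be told apart.

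By the schedule of the study's methods, day 16 cells had been in basal medium and day 23 cells had received 8-br-cAMP, a cell-permeable cAMP analogue. Day 31 cells are taken as cAMP-treated, as labelled, although that schedule changes the medium just before day 31. Day 38 cells had received hrTSH (recombinant human TSH) in place of the cAMP analogue, with dexamethasone, a glucocorticoid. Day 45 cells had in addition received SB431542, which blocks the TGFβ receptor kinase ALK5 and its relatives. The study places the start of SB431542 at or just before day 38, so day 38 cells, whose labels do not name it, may have met it briefly. The labels name cAMP for day 16 as well and leave dexamethasone out on day 45, where the schedule was followed instead.

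TSH acts on thyroid cells by way of its receptor, which couples to the stimulatory G protein and adenylyl cyclases that form cAMP. cAMP then acts through protein kinase A, exchange factors for Rap and cAMP-gated channels. Phosphodiesterases end the signal by hydrolysing cAMP. The PDE4, PDE7 and PDE8 families act on cAMP alone, and PDE3 and PDE10A also accept cGMP. PDE4 enzymes are regulated by protein kinase A, PDE3 enzymes are inhibited by cGMP, and PDE8 enzymes bind cAMP with high affinity and are known to be abundant in steroid-producing and thyroid tissue.

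Total counts ran from 7247268 to 10333933 per library. A level is given in CPM, counts scaled by TMM to a common library size, on which 3 counts, taken as the floor of a library, correspond to 0.307 to 0.436 CPM. This covers counting error only. All 10 genes passed the filter of at least 5 counts in at least 2 libraries that left 21014 genes for testing. Libraries of one day correlated at r = 0.940 to 0.970 over these genes, and libraries of different days at r = 0.853 to 0.942, so the ranges overlapped. The p-values rest on the spread between the 2 libraries of a day, pooled over the 5 days and moderated by the spread of the other genes tested. The methods call these libraries biological replicates of pooled wells, and they share a line.

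The sorted cells were checked against markers. NKX2-1, the transcription factor whose locus drives the reporter, stood at 58.1 to 157 CPM in every library, a value that may include transcripts of the transgene and of the reporter allele. PAX8 stood at 477 to 728 CPM. TG, the thyroglobulin precursor of thyroid hormone, was at 10.7 and 11.7 CPM on day 16 and at 7964 and 7525 on day 45. Of the same thyroid list, FOXE1 fell on days 23 and 45 and HHEX rose on day 23 and fell on day 45. FOXE1, a transcription factor of the thyroid bud, was at 897 and 630.5 CPM on day 16 and at 204 and 218 on day 45, and HHEX, another such factor, was at 96.0 and 133 on day 16, 362 and 365 on day 23 and 149 and 162 on day 45. Transcripts of other cell types were present in the same libraries. The 6 fibroblast genes (DCN, COL1A2, PRRX1, COL3A1, PDGFRA and LUM) summed to 663 and 925 CPM on day 16, 1396.5 and 1345 on day 23, 1134 and 1411 on day 31, 3182 and 3342 on day 38 and 3494 and 2815 on day 45, with all 6 above the floor in every library and COL3A1 the most abundant. The 6 cardiovascular and smooth muscle genes summed to between 21.5 and 50.3 CPM through day 31 and between 161 and 190.5 CPM on days 38 and 45, when ACTC1 or DES was the most abundant.

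Promoters were read to show where letters known to bind CREB, the factor that protein kinase A activates, or the glucocorticoid receptor occur. RefSeq windows (GRCh38.p14) from 250 bases before to 50 bases after a start were found for 9 of the 10 genes, 34 windows in all. PDE3B was not matched. The full cAMP response element TGACGTCA, searched on both strands, was in 2 of these windows, one of PDE7B and one of PDE4A, and in 1.85% of all 35116 windows. Its 5-letter core TGACG was in 4 of them, those of PDE7B and PDE4A and one each of PDE4C and PDE4D, and in 24.6% of all windows. TGTTCT, the core of the glucocorticoid response element, was in 5 windows (1 each of PDE3A, PDE4B and PDE4C and 2 of PDE4D) and in 14.8% of all windows. None of the 3 was in the windows of PDE8A, PDE8B or PDE10A. A match is a description of the letters, not a binding site. The stretches below are shown because they hold the full element or, for PDE4D, the most abundant of the 10 transcripts, the core. Capitals mark TGACG or its reverse complement CGTCA, and positions count from the transcription start.
PDE7B, chr6:135851451-135851700, plus strand, bases -250 to -1: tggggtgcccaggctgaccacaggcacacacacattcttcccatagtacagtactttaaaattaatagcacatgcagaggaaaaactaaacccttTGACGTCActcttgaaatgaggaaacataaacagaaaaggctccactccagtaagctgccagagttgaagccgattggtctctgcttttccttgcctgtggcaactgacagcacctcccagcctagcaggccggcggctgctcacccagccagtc
PDE4A, chr19:10416673-10416777, plus strand, bases -100 to 5: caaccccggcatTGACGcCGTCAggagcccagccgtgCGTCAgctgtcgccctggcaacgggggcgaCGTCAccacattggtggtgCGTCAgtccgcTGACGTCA
PDE4D, chr5:59587626-59587725, minus strand, bases -100 to -1: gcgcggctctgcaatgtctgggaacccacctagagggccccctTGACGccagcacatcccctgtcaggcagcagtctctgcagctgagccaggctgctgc
In PDE7B the element lies at bases -155 to -148, and in PDE4A it spans the start itself at bases -3 to 5, with further cores upstream.

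All 10 genes differed between at least one pair of days by the test over all 5 days (edgeR adjusted p from 4.21e-16 for PDE10A to 0.00191 for PDE3B), and so did 36.3% of all genes tested. The 4 successive steps were unlike each other. From day 16 to day 23, 6 of the 10 changed, 3 upward (PDE4B, PDE4D, PDE7B) and 3 downward (PDE3B, PDE4C, PDE10A), beside 10.9% of all genes, 5.6% upward and 5.33% downward. From day 31 to day 38, 4 rose (PDE4A, PDE4B, PDE8A, PDE10A) and none fell, beside 15% of all genes, 8.8% upward and 6.23% downward. Of these genes only PDE10A kept its call with each library left out in turn, as given below. From day 38 to day 45, PDE4C rose and PDE4D fell, beside 11.2% of all genes, 4.85% upward and 6.35% downward. From day 23 to day 31, when the labels name cAMP throughout, edgeR called 0 of the 10, beside 2.25% of all genes, 1.58% upward and 0.666% downward. At an unadjusted p under 0.05 there were 3 (PDE3A, PDE3B and PDE4C, all toward higher levels), beside 2386 of all 21014 genes. DESeq2 called 0 of the 10, beside 581 of all genes.

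**Figure D1:**
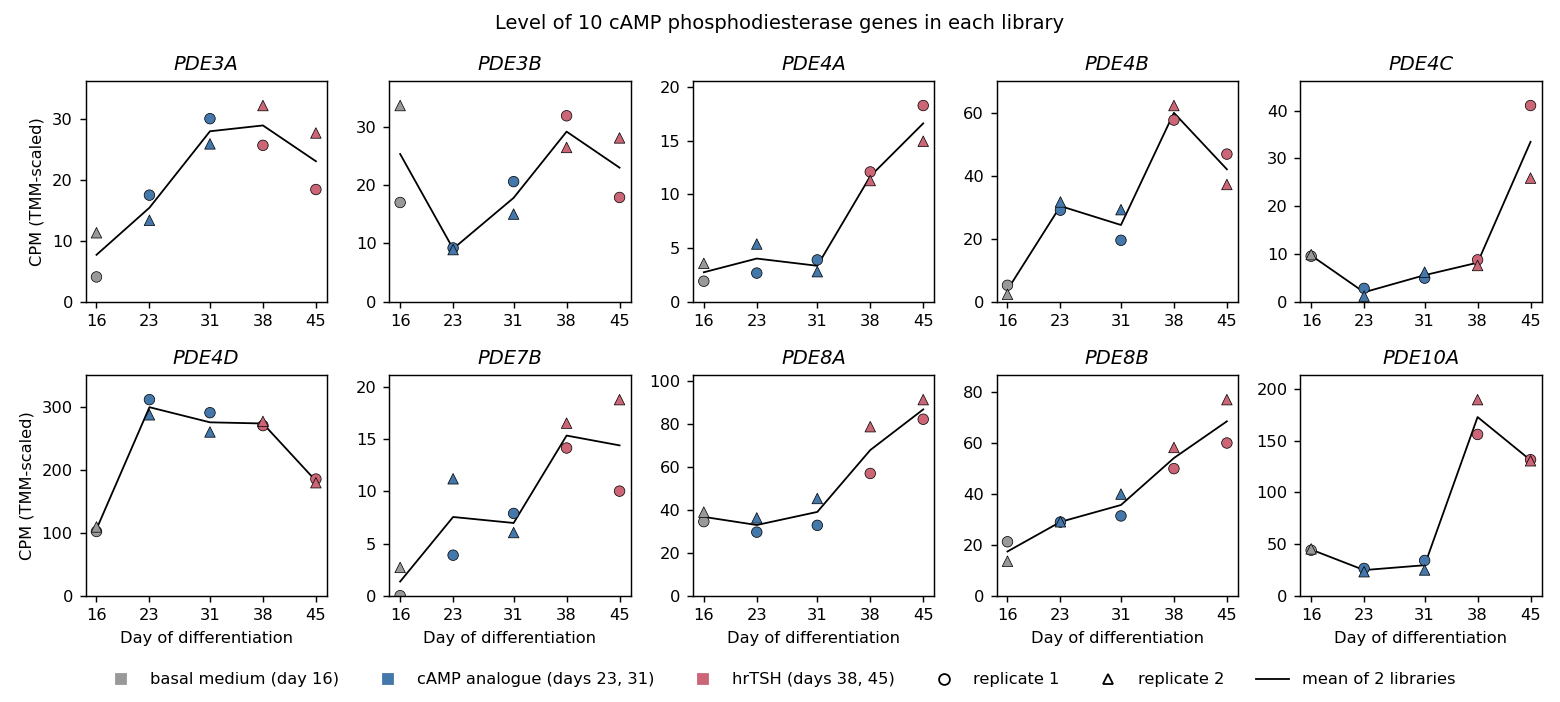
Level of each gene in CPM (y axis, each panel from 0) against day of differentiation (x axis). Circles and triangles are the 2 libraries of a day, the line joins their means, and colour gives the medium. PDE10A stays between 23.2 and 45.3 CPM through day 31 and stands at 131 to 189.8 CPM afterwards, while PDE4D is highest on day 23 and falls on day 45.

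Taken as phases, the cAMP days (23 and 31) differed from day 16 in 8 of the 10 genes (15.5% of all genes, 7.69% upward and 7.81% downward). PDE3A, PDE4B, PDE4D, PDE7B and PDE8B were higher and PDE3B, PDE4C and PDE10A lower. The median log2 fold change of the 10 was 0.65, against -0.04 over all genes. The hrTSH days (38 and 45) differed from the cAMP days in 8 of the 10 (29.9% of all genes, 16.1% upward and 13.7% downward), with 7 higher, PDE4D lower, and PDE3A and PDE7B not passing the test. The median of the 10 was 1.03, against 0.02 over all genes. These 2 phase comparisons share the cAMP libraries. Without TMM factors the median of all genes moved to -0.20 for day 38 against day 31 and to -0.15 for the hrTSH days against the cAMP days. The share of all called genes that were higher then fell from 58.5% to 33.3% in the first and from 54% to 36.6% in the second. Of the 10 genes, 3 were then called higher on day 38, without PDE8A, and 7 still higher in the hrTSH phase.

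PDE4D (chromosome 5, 58969038 to 60522120, minus strand, GRCh38, GENCODE 44, as for all positions that follow) encodes a cAMP-specific enzyme with many isoforms, of which the annotation lists 27 transcripts. Its level was 102 and 109 CPM on day 16, 312 and 288 on day 23, 291 and 261 on day 31, 271 and 277 on day 38, and 186 and 179.9 on day 45. The 6 libraries of days 23 to 38 lay above those of day 45, which lay above those of day 16. It rose by a log2 fold change of 1.503 ± 0.13 (SE, n = 2 a day, edgeR adjusted p = 2.11e-10) on day 23, a 2.83-fold increase. Between days 31 and 38 the difference did not pass the test (-0.01 ± 0.13, edgeR adjusted p = 0.985), and on day 45 the level fell by 0.58 ± 0.13 log2 units (edgeR adjusted p = 0.00172). The rise and the fall kept an adjusted p under 0.05 in all 18 alternative analyses (8 other settings and each of the 10 libraries left out), with values up to 0.0298 for the fall. The hrTSH days together were lower than the cAMP days (-0.36 ± 0.09, edgeR adjusted p = 0.00214), with overlapping groups, since day 38 lay within the range of the cAMP days.

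PDE4B (chromosome 1, 65792514 to 66374579, plus strand) encodes another cAMP-specific enzyme, known as a target of CREB and of inflammatory signals. It was at 5.20 and 2.34 CPM on day 16, 29.1 and 31.8 on day 23, 19.5 and 29.3 on day 31, 57.9 and 62.5 on day 38, and 47.0 and 37.4 on day 45. Its level stepped up on day 23 and again on day 38, and neither step's groups overlapped. Both libraries of day 45 lay below those of day 38, a difference that did not pass the test (-0.51, edgeR adjusted p = 0.261). The first step was 3.01 ± 0.33 log2 units (edgeR adjusted p = 1.99e-08), 8.08-fold, the largest change of the 10 genes from day 16 to day 23. The second was 1.30 ± 0.28 (edgeR adjusted p = 0.000745), 2.47-fold. Without day 31 replicate 1, the lower of that day's libraries, the second step was 1.03 with an adjusted p of 0.0517, the highest over its alternatives, which began at 1.08e-05.

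PDE4A (chromosome 19, 10416773 to 10469630, plus strand) encodes the third cAMP-specific enzyme of the family. It was scarce through day 31, at 1.90 and 3.57 CPM on day 16, 2.66 and 5.37 on day 23, and 3.89 and 2.79 on day 31, then stood at 12.1 and 11.3 on day 38 and 18.3 and 15.0 on day 45. These early values rest on 15 to 47 counts a library. The 4 hrTSH libraries all lay above the 6 before them. Day 38 exceeded day 31 by 1.80 ± 0.54 log2 units (edgeR adjusted p = 0.018), a call lost without any one of the 4 libraries compared, with adjusted p from 0.0566 to 0.131 there and from 0.00362 over all alternatives. The hrTSH days exceeded the cAMP days by 1.92 ± 0.38 (edgeR adjusted p = 0.000136), and this held in all 18 alternatives.

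PDE4C (chromosome 19, 18207965 to 18248200, minus strand) fell on day 23, where PDE4B and PDE4D rose. It was at 9.51 and 9.85 CPM on day 16, 2.77 and 1.14 on day 23, 4.91 and 6.17 on day 31, 8.75 and 7.57 on day 38, and 41.1 and 25.9 on day 45. The difference on day 23 was -2.29 ± 0.48 (edgeR adjusted p = 0.000992), to as few as 10 counts in a library. The rise on day 45, in the medium with SB431542, was 2.03 ± 0.43 (edgeR adjusted p = 0.00109), with the groups apart. Without day 45 replicate 1, the higher library, it was 1.66 with an adjusted p of 0.0545, the highest over alternatives that began at 5.33e-07. Of the exon bases of PDE4C, 73.9% are shared with other annotated genes, nearly all with a protein-coding gene on the same strand. That gene is absent from the counted symbols, so the assignment of these reads is uncertain.

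PDE8A (chromosome 15, 84980440 to 85139145, plus strand) encodes a high-affinity cAMP-specific enzyme. It was at 34.5 and 38.9 CPM on day 16, 29.6 and 36.2 on day 23, 32.8 and 45.3 on day 31, 56.9 and 78.7 on day 38, and 82.2 and 91.3 on day 45. The 4 hrTSH libraries lay above the other 6, which overlapped one another. The hrTSH days exceeded the cAMP days by 1.10 ± 0.15 log2 units, 2.14-fold (edgeR adjusted p = 5.83e-07), in all 18 alternatives. The step on day 38 alone was 0.80 ± 0.22 (edgeR adjusted p = 0.00849), which was lost without TMM factors, without day 31 replicate 1 and without day 38 replicate 2, with adjusted p from 0.0623 to 0.279 there and from 0.00239 over all alternatives.

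PDE8B (chromosome 5, 77210449 to 77428256, plus strand), known for the association of its variants with circulating TSH, was at 21.2 and 13.5 CPM on day 16, 28.9 and 29.0 on day 23, 31.3 and 39.9 on day 31, 49.9 and 58.2 on day 38, and 60.0 and 77.0 on day 45. Its libraries were ordered by day without overlap, with no single step past the threshold. The step on day 23 was 0.74 ± 0.25 (edgeR adjusted p = 0.0503, in a range from 0.00845 to 0.368 over its alternatives), and the step on day 38 was 0.60 (edgeR adjusted p = 0.0883, in a range from 0.0271 to 0.450). Both phases were past it: 0.89 ± 0.22 log2 units from day 16 to the cAMP days (edgeR adjusted p = 0.00433) and 0.92 ± 0.17 from there to the hrTSH days (edgeR adjusted p = 4.96e-05). The first was lost without day 16 replicate 2 (0.60, adjusted p = 0.134, in a range from 0.000837). Of its exon bases, 51.6% are shared with other annotated genes, among them a protein-coding gene on the same strand and WDR41 on the other.

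PDE10A (chromosome 6, 165327287 to 165988117, minus strand), which hydrolyses cAMP and cGMP and is best known from striatal neurons, showed the largest change of the 10 at the switch to hrTSH with dexamethasone. It was at 44.0 and 45.3 CPM on day 16, 26.4 and 23.2 on day 23, 34.1 and 24.9 on day 31, 156 and 189.8 on day 38, and 132 and 131 on day 45. It first fell by 0.85 ± 0.19 log2 units on day 23 (edgeR adjusted p = 0.00181) and then rose by 2.55 ± 0.19 on day 38, 5.85-fold (edgeR adjusted p = 1.07e-12). The lowest hrTSH library exceeded the highest earlier one, and both changes held in all 18 alternatives, with adjusted p up to 0.0454 for the fall and 3.34e-08 for the rise. Neuronal genes were present beside it. SNAP25, of the synaptic vesicle machinery, was at 2.66 and 1.85 CPM on day 16, 0.887 and 4.12 on day 23, 2.25 and 3.49 on day 31, 18.1 and 21.3 on day 38, and 27.4 and 36.6 on day 45, rising by 2.78 ± 0.50 log2 units on day 38 (edgeR adjusted p = 8.55e-05). TUBB3, a neuronal tubulin, was at 3.55 to 4.69 CPM on days 16 and 23, 9.11 and 12.5 on day 31, and 21.7 to 28.7 afterwards. It differed by 1.20 ± 0.39 log2 units on day 31 (edgeR adjusted p = 0.119) and rose by 1.20 ± 0.37 on day 38 (edgeR adjusted p = 0.0219). The mean of TUBB3 thus differed as much between days 23 and 31, where the test was not passed, as between days 31 and 38. ELAVL3, an RNA-binding protein of neurons, stood at no more than 6.23 CPM in any library, and LHX6 and LHX8, transcription factors of forebrain neurons, at no more than 1.48 and 4.42, with none of these 3 called on day 38. The fibroblast and smooth muscle sums given above were also higher on days 38 and 45 than before. Of the 6 fibroblast genes, LUM was lower on day 38 (-1.23, edgeR adjusted p = 2.8e-06), DCN (0.09) and PRRX1 (0.38) were not called, and COL1A2, COL3A1 and PDGFRA rose. The part of these cells in the changes on day 38 was not tested, and in sorted bulk RNA a change in the number of cells of a type and a change in RNA per cell cannot be told apart.

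PDE3A (chromosome 12, 20368537 to 20688583, plus strand) and PDE3B (chromosome 11, 14643804 to 14872044, plus strand) encode the cGMP-inhibited enzymes of heart, vessel and fat. PDE3A was at 4.06 and 11.3 CPM on day 16, 17.5 and 13.4 on day 23, 30.1 and 25.9 on day 31, 25.7 and 32.3 on day 38, and 18.4 and 27.7 on day 45. PDE3B was at 17.0 and 33.6 CPM on day 16, 9.20 and 8.92 on day 23, 20.6 and 15.0 on day 31, 31.9 and 26.4 on day 38, and 17.9 and 28.1 on day 45. For each gene the libraries of day 23 did not overlap those of day 16, with PDE3B lower in both and PDE3A at a greater level in both. The step of PDE3A to day 23, 1.00 ± 0.37, was not called (edgeR adjusted p = 0.0765, from 0.0025 to 0.547 over the 18 alternatives). PDE3A was higher on the cAMP days than on day 16 by 1.43 ± 0.33 log2 units (edgeR adjusted p = 0.0021), and by 0.89 without day 16 replicate 1 (adjusted p = 0.104), in a range from 3.27e-05. PDE3B fell by 1.48 ± 0.34 log2 units on day 23 (edgeR adjusted p = 0.00313), and the difference was -0.91 without day 16 replicate 2 (adjusted p = 0.154), in a range from 0.000256. Over both cAMP days the difference of PDE3B from day 16 was -0.99 ± 0.28 (edgeR adjusted p = 0.0122), with overlapping groups, and it was -0.42 without day 16 replicate 2 (adjusted p = 0.514) and -0.88 without day 31 replicate 2 (adjusted p = 0.0545), in a range from 0.00127. The rise of PDE3B from the cAMP to the hrTSH days, 1.03 ± 0.24 (edgeR adjusted p = 0.000959), held, although the groups overlapped, in all 18 alternatives.

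PDE7B (chromosome 6, 135851701 to 136195574, plus strand), a cAMP-specific enzyme, was the least certain of the 10. It had 0 counts in one day 16 library, which allows a level of up to 0.380 CPM, and 22 counts or 2.71 CPM in the other. It was then at 3.88 and 11.2 CPM on day 23, 7.88 and 6.05 on day 31, 14.1 and 16.5 on day 38, and 10.0 and 18.8 on day 45. The rise on day 23 (2.45 ± 0.71 log2 units, edgeR adjusted p = 0.0188) was lost with DESeq2 (adjusted p = 0.219), without day 16 replicate 1 (1.49, adjusted p = 0.163) and without day 23 replicate 2 (1.498, adjusted p = 0.324), in a range from 4.46e-05. The rise over both cAMP days (2.40 ± 0.66, edgeR adjusted p = 0.00913) was lost with DESeq2 (adjusted p = 0.136) and without day 16 replicate 1 (1.43, adjusted p = 0.137), in a range from 2.18e-05. From the cAMP to the hrTSH days the difference was 1.04 with an edgeR adjusted p of 0.069, in a range from 0.0101 to 0.422. DESeq2 did not call PDE7B over the 5 days either (adjusted p = 0.237, in a range from 1.36e-08).

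**Figure D2:**
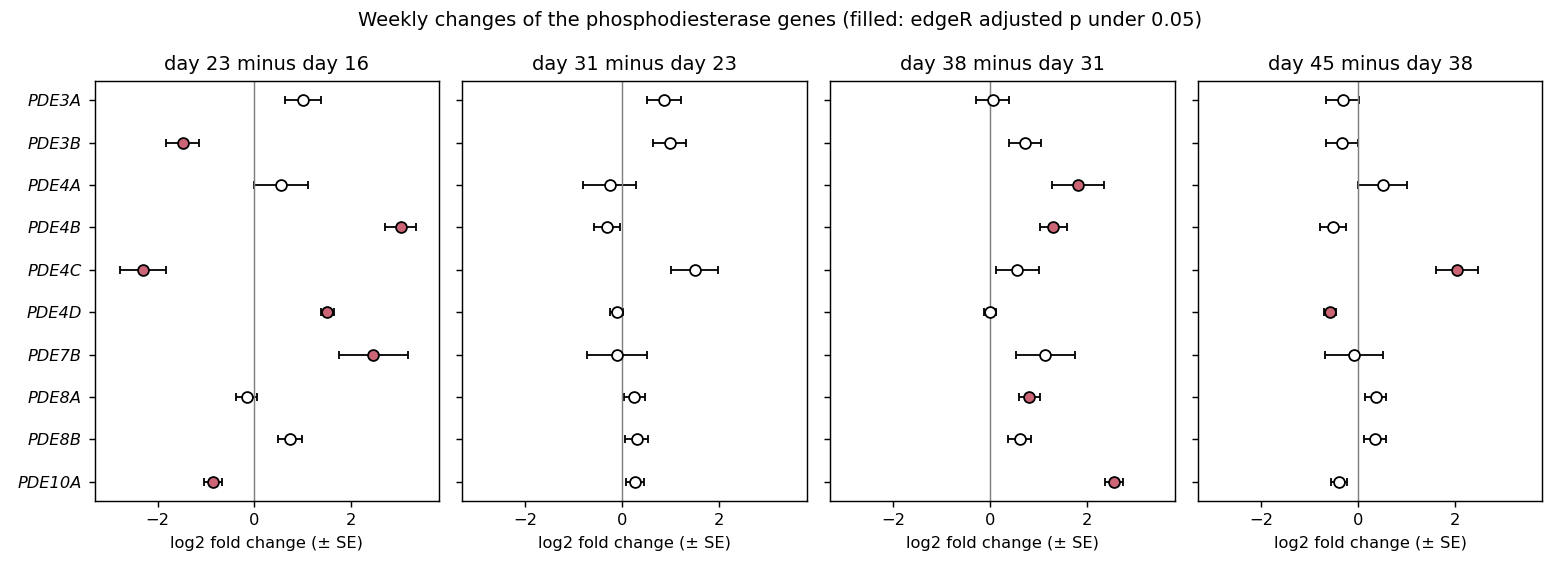
Log2 fold change (x axis) of each gene (rows) at the 4 successive steps (panels), with bars of 1 standard error and filled points where the edgeR adjusted p was under 0.05. The first step holds 3 rises and 3 falls, the second no call, the third 4 rises led by PDE10A, and the fourth a rise of PDE4C and a fall of PDE4D.

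To compare genes with each other, CPM was divided by the length of the union of a gene's annotated exons, which gives CPM per kilobase. On this scale PDE4D led on day 16 (6.48 ± 0.31, SD, n = 2), ahead of PDE8A (4.59 ± 0.39), PDE8B (3.10 ± 0.97) and PDE3B (2.18 ± 1.01), the last 2 within their spread. On day 23 PDE4D stood at 18.4 ± 1.05, and the next, PDE8B, at 5.18 ± 0.014. On day 38 PDE4D stood at 16.8 ± 0.29, followed by PDE8B (9.66 ± 1.05) and PDE8A (8.47 ± 1.92), which were within their spread of each other, PDE4B (6.74 ± 0.37) and PDE10A (4.55 ± 0.63). On day 45 PDE8B (12.2 ± 2.15), PDE4D (11.2 ± 0.25) and PDE8A (10.8 ± 0.81) did not differ beyond their spread. The levels per length of PDE8B and PDE4C, and the sums and shares that hold them, are uncertain, since other genes share many of their exon bases. This order depends on the length used: by the longest transcript PDE4D made up 22.9% of the summed level on day 45, PDE8A 19.1% and PDE8B 15.2%. The level of PDE10A depends on it too, since its exons unite to 37993 bases and its longest transcript has 9334. By the longest transcript its share of the summed level was 17.5% on day 38, above PDE8A at 13.7%, whereas by the union of exons it was 8.06%.

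The sum over the 10 genes was 19.5 and 21.5 CPM per kilobase on day 16, 35.5 and 36.1 on day 23, 37.2 and 38.2 on day 31, 53.3 and 59.4 on day 38, and 54.1 and 57.3 on day 45. The sum was higher in every library of the cAMP days than on day 16, and higher in every hrTSH library than on the cAMP days. The 4 PDE4 genes made up 42.3% ± 1.58 (SD, n = 2) of it on day 16, 63.3% ± 2.81 on day 23, 55.4% ± 2.47 on day 31, 47.0% ± 2.82 on day 38 and 41.5% ± 6.80 on day 45. The share of PDE8A and PDE8B together was 37.7% ± 5.50 on day 16, 25.9% ± 1.34 on day 23, 29.7% ± 5.26 on day 31, 32.1% ± 2.80 on day 38 and 41.4% ± 3.65 on day 45. The shares divide one sum. As levels, PDE8A and PDE8B together went from 7.69 ± 0.57 CPM per kilobase on day 16 to 9.29 ± 0.60, 11.2 ± 2.19, 18.1 ± 2.98 and 23.1 ± 2.96 on the later days, and the PDE4 genes from 8.66 ± 0.30 to 22.7 ± 0.71, 20.9 ± 0.55, 26.4 ± 0.46 and 23.04 ± 2.86. The lower PDE8 share on day 23 thus came without a lower PDE8 level. The largest share of PDE4 was on day 23, and on day 45 the PDE4 and PDE8 shares were equal within their spread. By the longest transcript they were 42.8% ± 5.70 and 34.3% ± 3.34 on day 45, with PDE4 higher in both libraries.

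**Figure D3:**
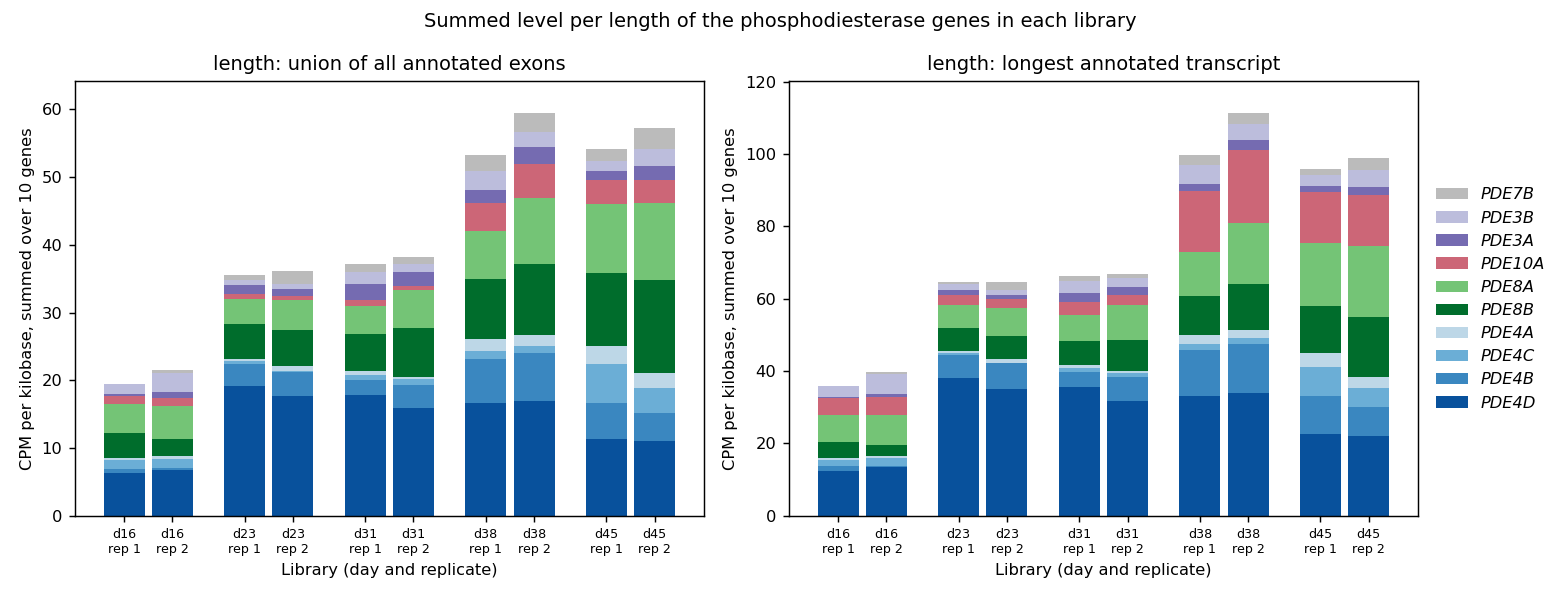
CPM per kilobase summed over the 10 genes (y axis, from 0) in each library (x axis), stacked by gene, with the length taken as the union of exons (left) or the longest transcript (right). The sum is lowest on day 16 and highest on the hrTSH days with either length. PDE4D makes up the largest part on days 23 and 31, and PDE10A takes a larger part by the longest transcript.

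Other phosphodiesterases are given for comparison, among them genes whose enzymes also hydrolyse cAMP but were not among the 10, such as PDE7A and the PDE1, PDE2A and PDE11A genes. Of 14 listed (PDE1, PDE2A, PDE5A, PDE6, PDE7A, PDE9A and PDE11A genes), 12 were tested and PDE6A and PDE6H did not pass the filter. At the steps to days 23, 31 and 38 edgeR called 0 of them, beside 10.9%, 2.25% and 15% of all genes. At each of these steps 2 had an unadjusted p under 0.05, beside 4873, 2386 and 5409 of all 21014 genes. DESeq2 called 0, 1 and 1 of the list, beside 2554, 581 and 3330 of all genes. On day 45 edgeR called 1, beside 11.2% of all genes. At that step 5 had an unadjusted p under 0.05, beside 4697 of all genes, and DESeq2 called 2, beside 2522 of all genes. Over the 5 days edgeR called 5, beside 36.3% of all genes. The median log2 fold change of the list was 0.35 from day 16 to the cAMP days and -0.05 from there to the hrTSH days, against -0.04 and 0.02 over all genes. PDE5A, a cGMP-specific enzyme, was at 171 and 202 CPM on day 16, 125 and 145 on day 38 and 76.8 and 78.6 on day 45, a fall of 0.80 ± 0.15 log2 units in the last step (edgeR adjusted p = 0.000202). PDE6B, known from the photoreceptor, was lower on the cAMP days than on day 16 (-0.99 ± 0.24, edgeR adjusted p = 0.00337). PDE9A, another cGMP-specific enzyme, was higher on the hrTSH days than on the cAMP days (0.73 ± 0.21, edgeR adjusted p = 0.0084). PDE7A, the relative of PDE7B, was at 63.5 and 98.1 CPM on day 16 and at 54.2 and 55.8 on day 45, and was not called at any step. Whether the share of called genes differs between the 2 lists was not tested.

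Among 23 genes of cAMP formation and action, 3 were called on day 23, 3 on day 31, 9 on day 38 (7 higher) and 5 on day 45 (2 higher), beside 10.9%, 2.25%, 15% and 11.2% of all genes. The list median was -0.17 for the cAMP phase and 0.16 for the hrTSH phase. TSHR, the TSH receptor, was at 17.5 and 8.87 CPM on day 16, 64.9 and 78.3 on day 23, 77.7 and 77.3 on day 31, 149.8 and 151 on day 38, and 120.1 and 121 on day 45, rising by 2.44 ± 0.21 log2 units on day 23 (edgeR adjusted p = 1.76e-10) and by 0.96 ± 0.19 on day 38 (edgeR adjusted p = 0.000311). ADCY2 and ADCY9, adenylyl cyclases that form cAMP, changed in opposite directions. ADCY2 went from 179 and 146 CPM on day 16 to 18.3 and 18.5 on day 38 and 6.53 and 3.28 on day 45, and was lower on the hrTSH than the cAMP days (log2 fold change -3.45 ± 0.16, edgeR adjusted p = 8.37e-19). ADCY9 went from 37.8 and 30.9 CPM to 101 and 98.2 on day 38 and 129.5 and 121 on day 45, higher on the hrTSH days by 1.23 ± 0.13 (edgeR adjusted p = 1.04e-09). ADCY8 had 0 counts in all 4 libraries of the cAMP days and 1.42 to 3.78 CPM on the hrTSH days. GNAS, the stimulatory G protein subunit, was at 1083 to 1312 CPM in every library and not called at any step. Among the effectors, RAPGEF4, an exchange factor for Rap, rose by 2.55 ± 0.50 on day 38 (edgeR adjusted p = 0.000287) and fell by 1.85 ± 0.48 on day 45 (edgeR adjusted p = 0.00846), and PRKACB, a catalytic subunit of protein kinase A, rose by 1.12 ± 0.19 on day 38 (edgeR adjusted p = 3.08e-05).

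Of 15 anchors and partners that place phosphodiesterases in the cell, edgeR called 0 on days 23 and 31. Of all genes, 10.9% and 2.25% were called there. On these days 2 and 3 of the list had an unadjusted p under 0.05, beside 4873 and 2386 of all 21014 genes. DESeq2 called 1 of the list each, beside 2554 and 581 of all genes. On day 38 edgeR called 3 and on day 45 2, beside 15% and 11.2% of all genes. The list median was 0.01 for the cAMP phase and -0.06 for the hrTSH phase. ARRB1, a beta-arrestin that brings PDE4 to activated receptors, was at 99.6 and 88.4 CPM on day 31 and 21.4 and 18.0 on day 38, a fall of 2.25 ± 0.25 log2 units (edgeR adjusted p = 1.52e-08). RACK1, a scaffold that binds PDE4D5, rose at the same step by 0.54 ± 0.13 (edgeR adjusted p = 0.00253). PDE4DIP, the myomegalin anchor of PDE4D, stood at 23.4 to 40.5 CPM over the 10 libraries and was not called at any step.

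Genes known to respond to CREB or to glucocorticoids are given beside the phosphodiesterases. PER1 and DUSP1 are in both lists. The medians of the CREB-responsive and glucocorticoid-responsive lists were -0.47 and -0.31 for the cAMP phase, and 0.71 and 1.20 for the hrTSH phase. Of 12 CREB-responsive genes tested, 7 were called on day 23, and 6 of the 7 were lower, beside 10.9% of all genes, 5.33% downward. The lower ones included NR4A2 (-3.99 ± 0.42, edgeR adjusted p = 1.01e-08), NR4A3 (-2.94 ± 0.18, edgeR adjusted p = 8.03e-14) and RGS2 (-2.39 ± 0.30, edgeR adjusted p = 3.42e-07), while DIO2, the deiodinase that activates thyroid hormone, rose by 2.38 ± 0.14 (edgeR adjusted p = 1.38e-14). At the same step PDE4B, PDE4D and PDE7B rose and PDE3B, PDE4C and PDE10A fell. The calls of PDE7B and PDE3B there were each lost in at least 1 alternative, as given above. On day 31 NR4A1 (0.64 ± 0.16, edgeR adjusted p = 0.0254) and ATF3 (0.82 ± 0.14, edgeR adjusted p = 0.000449) rose, while edgeR called 0 of the 10 phosphodiesterases. On day 38, 4 of the 12 were called, 3 higher, beside 15% of all genes, with NR4A2 rising by 1.56 ± 0.38 (edgeR adjusted p = 0.00374). On day 45, 8 were called, 6 higher and 2 lower, beside 11.2% of all genes. FOS fell by 2.02 ± 0.11 (edgeR adjusted p = 5.72e-15) and DUSP1 by 0.37 ± 0.11 (edgeR adjusted p = 0.0276). NR4A2 and NR4A3 rose by 2.95 ± 0.36 and 3.01 ± 0.18 (edgeR adjusted p = 1.85e-07 and 6.26e-14), the step at which PDE4C rose and PDE4D fell. Of 8 glucocorticoid-responsive genes, 6 had an unadjusted p under 0.05 on day 23, before dexamethasone was given, as had 4873 of all 21014 genes. DESeq2 called 3 of the 8 there, beside 2554 of all genes. On day 38 edgeR called 4, all higher: FKBP5 (2.02 ± 0.23, edgeR adjusted p = 3.98e-08), ZBTB16 (1.87 ± 0.47), SGK1 (1.15 ± 0.23) and TSC22D3 (1.13 ± 0.17). Of all genes, 15% were called there, 8.8% upward. ZBTB16 was at 13.3 to 16.5 CPM on day 16, 3.28 to 3.37 on day 31 and 11.1 to 13.4 on day 38. Its mean on day 38 thus did not exceed that of day 16. PDE4A, PDE4B, PDE8A and PDE10A rose at the step to day 38. There hrTSH took the place of the cAMP analogue and dexamethasone was added, so these changes of medium cannot be told apart.

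**Figure D4:**
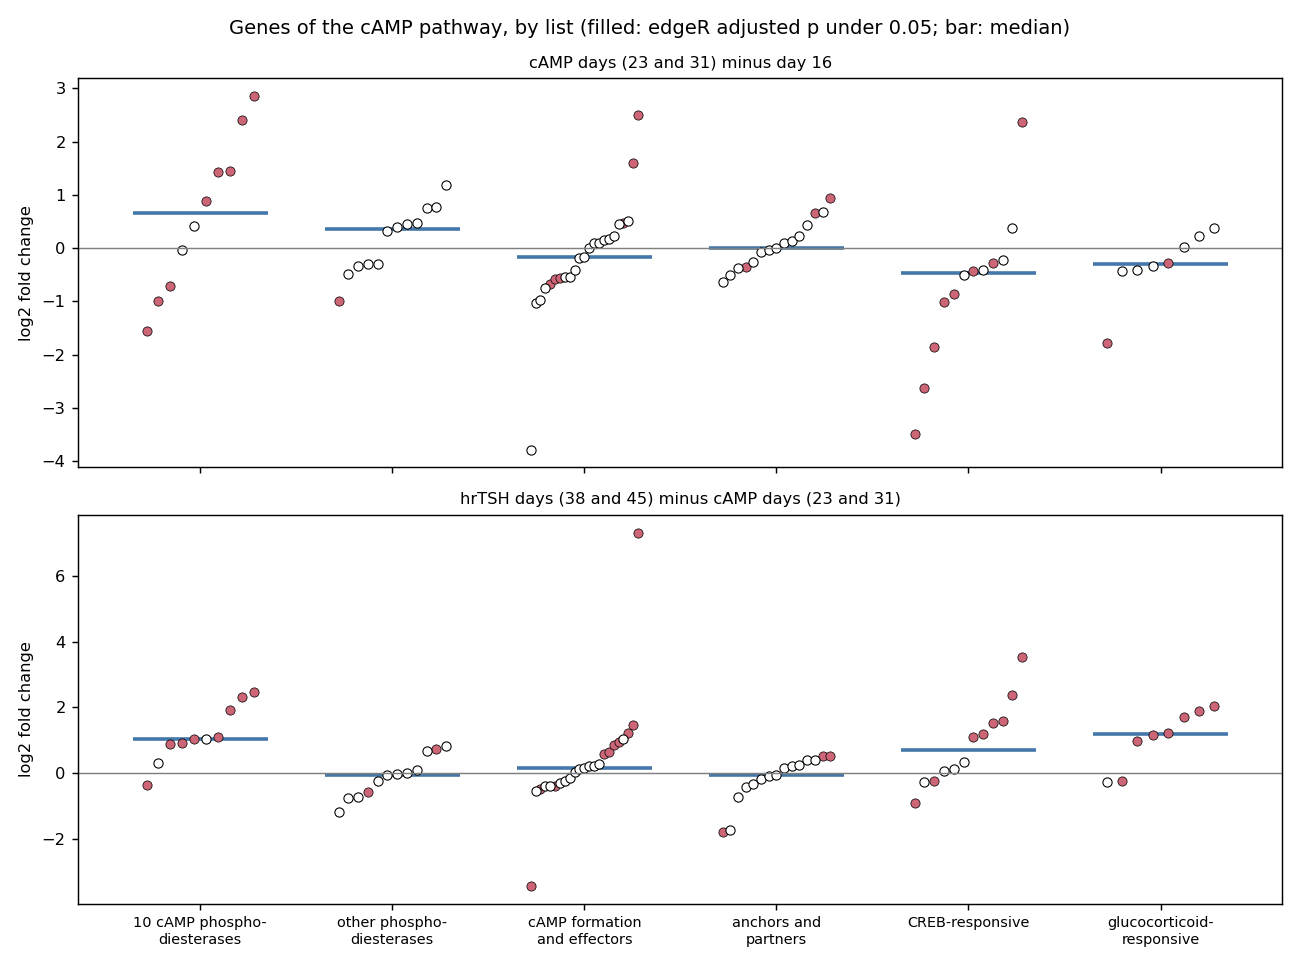
Log2 fold change (y axis) of each gene of 6 lists (x axis) between the cAMP days and day 16 (top) and between the hrTSH and cAMP days (bottom). Filled points have an edgeR adjusted p under 0.05 and bars are list medians. In the lower panel 7 of the 10 cAMP phosphodiesterases are called higher, and of 12 other phosphodiesterases 1 is called higher and 1 lower. The highest point of the lower panel is ADCY8, which had 0 counts on the cAMP days.

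For each of the 10 genes, the 3 genes with the most similar course were sought by Pearson's r of log2 CPM over the 10 libraries, among 13115 genes with a mean of at least 5 CPM. The libraries share 5 days and 1 sequence of media, so a high r is a description. The closest course to PDE4B was that of TSHR (r = 0.987). PDE10A was closest to VEGFA (0.987), GAPDH (0.984) and TSC22D3 (0.981), the last a glucocorticoid-responsive gene of the list above. PDE4C was closest to IDI1 (0.989), ATF3 (0.958, also of the CREB-responsive list) and DDIT3 (0.953), PDE8B to TNS2 (0.988) and IL1R1 (0.983), and PDE8A to GJB6 (0.969), CREB5 (0.967) and PTGS2 (0.960). PDE4D was closest to SERPINH1, KCNH2 and TRIM2 (0.959 to 0.961), PDE4A to GPX4, BAIAP2L1 and C1S (0.972 to 0.975), and PDE7B to PPP3CC (0.986). PDE3A was closest to MPHOSPH6 (0.973) and PDE3B to GTF2H5 (0.967).

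Among the 10 genes themselves, the pairs with the most similar courses were PDE4A with PDE8A and PDE3A with PDE7B (r = 0.893 for both), PDE4B with PDE8B (0.874) and PDE8A with PDE10A (0.868). The least similar were PDE4C with PDE4D (-0.496) and PDE3B with PDE4D (-0.380). The closest pairs joined different families, and within PDE4 the 6 pairs ran from -0.496 to 0.781 for PDE4B with PDE4D.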

How the data were processed

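RNA-seq libraries were made from sorted NKX2-1 GFP+ cells with a low-input kit. Reads were trimmed with Trimmomatic, aligned to GRCh38.p13 with HISAT2 and counted with HTSeq by the authors, who deposited raw counts for 28265 gene symbols. Tool versions and the strand setting are not given in the sources used here, so genes that overlap others on either strand are uncertain. PCR copies are not separated from molecules, and intervals and floors cover counting error only. Total counts were 7247268 to 10333933 per library. RN7SK took 6.82 and 7.11% of them on day 16, 2.92 to 4.42% on the cAMP days and 5.14 to 8.17% on the hrTSH days. Its share was thus lower in every cAMP library than in any other, and its part in the differences between phases was not tested. Replicates of a day differed by more than sampling noise (chi-square per degree of freedom 8.38 to 13.7), so each library was 1 replicate. Samples were assigned to days from their labels. Replicate numbers did not pair libraries across days: the 10 correlations of same-numbered deviations ran from -0.032 to 0.020.

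Genes that reached 5 counts in 2 or more libraries entered 1 fit with a mean per day (5 residual degrees of freedom), using edgeR 4.0.16 (glmQLFit, glmQLFTest, TMM) with limma 3.58.1 in R 4.3.3. P-values were adjusted by Benjamini-Hochberg over all 21014 genes, threshold 0.05, for 7 comparisons. A standard error is the absolute log2 fold change over the square root of F. A fold against a day at 0 depends on the prior count. Lengths and positions came from GENCODE 44 (GRCh38), matched by symbol for all 10 genes. The procedure was tested on simulated counts. The named genes are the 10, members of the lists, at most the 3 highest and 3 lowest called per list and comparison, with uncalled ones given for context, and the 3 genes with the most similar course. The members, lists and tests were chosen with earlier results of these data known. Of the lists, ICER is not among the counted symbols and SIK1 did not pass the filter. Alternatives were DESeq2 1.42.0, other scalings and filters, a fit of the compared days, a replicate block, a fold threshold, another gene length and leaving out each library. Libraries kept on cAMP at later days were not analysed here. The summed level of 1 further marker list is not reported here.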

Additional observations from a re-analysis of the deposited data

How the results depend on the processing

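Apart from leaving out libraries and from the fold threshold, the alternatives lost 4 calls of single genes: PDE7B with DESeq2 at day 23, on the cAMP days and over all days, and PDE8A at day 38 without TMM factors. Requiring a log2 fold change of at least 1 left 1183, 282, 1691 and 1202 genes for the steps to days 23, 31, 38 and 45, 1537 for the cAMP phase and 2822 for the hrTSH phase, and of the 10 phosphodiesterases 5 at day 23, 3 at day 38, 1 at day 45 and 5 in each phase; fewer pass by construction. A fit of only the days compared called 743 genes at day 31, 4359 at day 38 and 6730 in the hrTSH phase, and of the 10 phosphodiesterases 6 at day 38 (adding PDE7B and PDE8B) and 9 in the hrTSH phase (adding PDE7B). By the longest transcript, the mean CPM per kilobase over libraries was 8.64 for PDE10A, 3.48 for PDE3B, 1.57 for PDE4A, 7.09 for PDE4B, 2.34 for PDE4C, 27.8 for PDE4D, 11.3 for PDE8A and 8.88 for PDE8B, which shows the shorter length. The differences that missed the threshold and changed sign were PDE3A at day 38 (-0.17 without TMM factors, -0.00304 with upper-quartile factors), PDE7B at day 31 (0.14 with the replicate block) and PDE8A on the cAMP days (0.0229 without TMM factors). With the replicate block, 2703, 678, 3472 and 2691 genes were called at the 4 steps, 3581 and 6437 in the phases and 8239 over all days. Of the 10 phosphodiesterases it called 8 at day 23 (adding PDE3A and PDE8B) and 9 in the hrTSH phase (adding PDE7B), and it changed no other call among them; no same-numbered libraries deviated together.

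Leaving out each library in turn gave 1401 to 2477 genes at day 23, 214 to 679 at day 31, 1818 to 3679 at day 38 and 1216 to 2866 at day 45. Of the 10 phosphodiesterases it gave 1 to 5 at day 38 and 1 to 2 at day 45. The lowest of these was without day 31 replicate 1, with PDE10A alone. The mean CPM per kilobase ranged from 1.80 to 2.29 for PDE10A and from 13.4 to 14.8 for PDE4D. Changes of sign, all in differences that missed the threshold, had ranges of -0.12 to 0.20 (PDE3A, day 38), -0.0425 to 1.07 and -0.68 to 0.33 (PDE4A, days 23 and 31), -0.10 to 0.0604 (PDE4D, day 38), -0.68 to 0.84 and -0.61 to 0.29 (PDE7B, days 31 and 45), -0.15 to 0.0842 (PDE8A, cAMP days) and -0.0164 to 0.45 (PDE8A, day 31). Where an arm was left with 1 library, it was assumed to vary like the other days. Day 16 and day 23 levels of PDE4A, PDE4C and PDE7B rest on 0 to 98 counts a library, and day 16 levels of PDE4B and PDE3A on 19 to 92, which limits their precision.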

Other observations

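PDE4B-AS1, an antisense gene named after PDE4B, was looked at after its values had been seen. It had 0 counts in all 6 libraries of days 16 to 31, 11 and 12 counts on day 38, and 3 and 1 counts on day 45. No annotated gene shared exon bases with PDE4B in the annotation used here.

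Markers of lung, airway and mucous cells changed along the series too. SFTPB, a surfactant protein gene, was at 3.55 and 1.48 CPM on day 16, 165 and 149 on day 23, 499 and 502 on day 31, 6.59 and 8.62 on day 38, and 46.2 and 50.2 on day 45. SFTPC was listed with at most 0.108 CPM in any library. The 3 goblet genes summed to 0.761 to 5.47 CPM through day 31 and 36.4 to 103 on days 38 and 45, with MUC5AC leading on day 38 and MUC5B on day 45. KRT5 and TP63, of airway basal cells, summed to 1.995 to 21.8 CPM through day 31, 21.1 and 17.6 on day 38, and 44.3 and 38.7 on day 45. The 4 endothelial genes summed to 10.7 to 37.0 CPM, with KDR the most abundant in every library and CDH5 next on day 38 (KDR 8.96 and 10.0 CPM, CDH5 4.43 and 5.47), and with PECAM1 at 0 in all 6 libraries through day 31. CD68 and PTPRC, of blood cells, summed to 2.44 to 37.0 CPM. The part of these cells in the phosphodiesterase levels was not tested.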
